A study of Mus musculus with 36 samples.

Results

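Hearts of C57BL/6J mice were given 12 Gy in 1 fraction, with a microirradiator for small animals, or a sham procedure, and RNA was sequenced from the cells labelled myocytes 6 hours later. The comparison rests on 4 of the 36 libraries of the series, 2 irradiated and 2 sham, chosen by the cell type, treatment and time in their titles. The mice of both groups are labelled wild type and nothing but the radiation is said to differ between them. The other libraries come from endothelial cells and fibroblasts of such hearts and from 7 and 28 days. They are used to show where the myocyte libraries at 6 hours differ and what other cells could contribute to them. They also enter the estimates of spread in the fits. No label says whether the 2 libraries of a group came from separate animals. The spread behind each p-value of a fit is that between libraries of the same group, pooled over all groups in the fit. It may therefore be technical.

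Ionizing radiation breaks DNA, and the damage kinases ATM and ATR then stabilise the transcription factor p53. p53 binds response elements made of a pair of decamers and switches on genes that stop the cell cycle, trigger cell death or limit stress, together with Mdm2, whose product returns p53 to degradation. Most adult cardiomyocytes no longer divide, while the endothelial cells and fibroblasts around them still can. Levels are given in CPM, the reads of a gene scaled to a common library total, counted on the transcript that stands for a gene, and fold changes come from the edgeR fit of the 12 myocyte libraries on TMM-scaled counts.

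The 4 libraries held 13.17 M to 19.42 M reads on 16646 to 17159 genes. Their leading genes were those of the cardiomyocyte: the 15 cardiomyocyte markers took 10.5% to 11.6% of all reads, and the main adult myosin heavy chain gene Myh6 stood at 44200 and 39980 CPM in the sham and at 41890 and 34450 CPM in the irradiated libraries. Other cells were also present. The 15 endothelial markers summed to 2889 and 3563 CPM in the sham and to 2357 and 2540 CPM in the irradiated libraries, against 19640 to 24370 CPM in endothelial libraries of the same hour. The 15 fibroblast markers summed to 6143 and 7182 CPM in the sham and to 5874 and 7258 CPM in the irradiated libraries, against 75220 to 86550 CPM in fibroblast libraries. The 15 macrophage and monocyte markers summed to 920.9 and 1100.0 CPM in the sham and to 773.1 and 958.8 CPM in the irradiated libraries, while endothelial and fibroblast libraries held 41.3 to 81.5 CPM. Neutrophil and lymphocyte lists stayed between 3.23 and 8.04 CPM, mesothelial and Schwann lists between 14.1 and 21.9 CPM, and of the adipocyte list 1 gene, Lep, had no read in any of the 4.

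**Figure D1:**
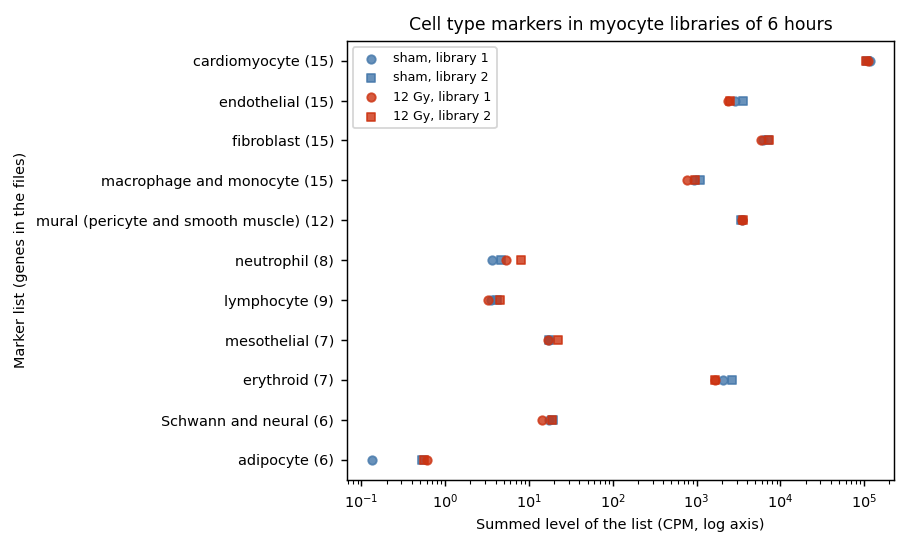
Summed level of each marker list (CPM, log axis) in the 2 sham (blue) and 2 irradiated (red) myocyte libraries of 6 hours, with the number of genes of a list in brackets. Cardiomyocyte markers lie at 105100 CPM or more in all 4 libraries, and endothelial markers are lower in both irradiated libraries (2357 and 2540 CPM) than in both sham libraries (2889 and 3563 CPM).

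The summed endothelial markers of the irradiated libraries were 0.759 of the sham level, with no overlap of the groups (exact two-sided permutation test, p = 0.333, the smallest that 2 against 2 libraries allow), and 14 of the 15 markers had a negative log2 fold change (median -0.37). In the endothelial libraries themselves the 15 markers had a median of -0.30 and 15 of 15 were negative. None of the 15 passed the test across all genes in myocyte libraries, and 10 were lower in a fit of the 4 libraries alone, in which 2.35% of all genes were lower. The junction gene Cdh5 had 331.9 and 404.3 CPM in the sham and 258.9 and 268.0 CPM in the irradiated libraries. The summed fibroblast, macrophage and mural markers overlapped between the groups, with ratios of irradiated to sham of 0.985, 0.857 and 1.01. Both irradiated libraries nevertheless lay below both sham libraries for 10 of the 12 mural markers, against 19.7% of all genes tested. The same held for 6 of the 15 macrophage and 3 of the 15 fibroblast markers. Log2 fold changes were negative for 11 of the 12 mural, 12 of the 15 macrophage and 11 of the 15 fibroblast markers (medians -0.27, -0.21 and -0.08). In the fit of the 4 libraries alone, 3 mural, 4 macrophage and 1 fibroblast marker were lower, and 1 fibroblast marker was higher. Erythroid markers summed to 2071 and 2651 CPM in the sham and to 1676 and 1643 CPM in the irradiated libraries, and neutrophil markers to 3.64 and 4.63 and to 5.28 and 8.04 CPM. For the results that follow, carried values are given for endothelial cells and fibroblasts, and fits with a marker covariate for these and for macrophages; the part of the other cells was not tested. In bulk samples such as these, fewer cells of a type and less RNA per cell cannot be told apart.

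Irradiated myocyte libraries had 46 genes above and 0 genes below the sham level among 14115 tested (edgeR quasi-likelihood test with Benjamini-Hochberg adjustment, threshold 0.05), so that 0.326% of all genes were called higher. At an unadjusted p under 0.05, 271 genes were higher and 300 were lower. DESeq2 called 73 higher and 7 lower, and limma on log2(RPKM + 1) called 54 higher and 0 lower. The 46 log2 fold changes ran from 0.84 to 4.94 with a median of 2.11. Both irradiated libraries lay above both sham libraries for each of the 46, which held for 26.1% of all genes tested. The count rested on all 4 libraries: 21 genes passed when the first irradiated library was left out, 16 when the second was, 11 for the first sham library and 14 for the second.

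A library of another time also set how many genes passed. The first irradiated myocyte library of 7 days stood apart from its replicate and raised the estimated spread of the whole fit, from a biological coefficient of variation of 0.0969 without it to 0.172 with it. Without that library, 148 genes of 14426 were called (1.03%), 117 higher (0.811%) and 31 lower, and all 46 genes were among them. With the 4 libraries of 6 hours alone, 224 genes were higher (1.6%) and 328 lower of 13975, and again all 46 were called. Of the 46, 10 passed in each of the fits that left out 1 of the 4 libraries: Cdkn1a, Gdf15, Phlda3, Gtse1, Aen, Sesn2, Klhdc7a, Celf5, Ddias and Zfp365.

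**Figure D2:**
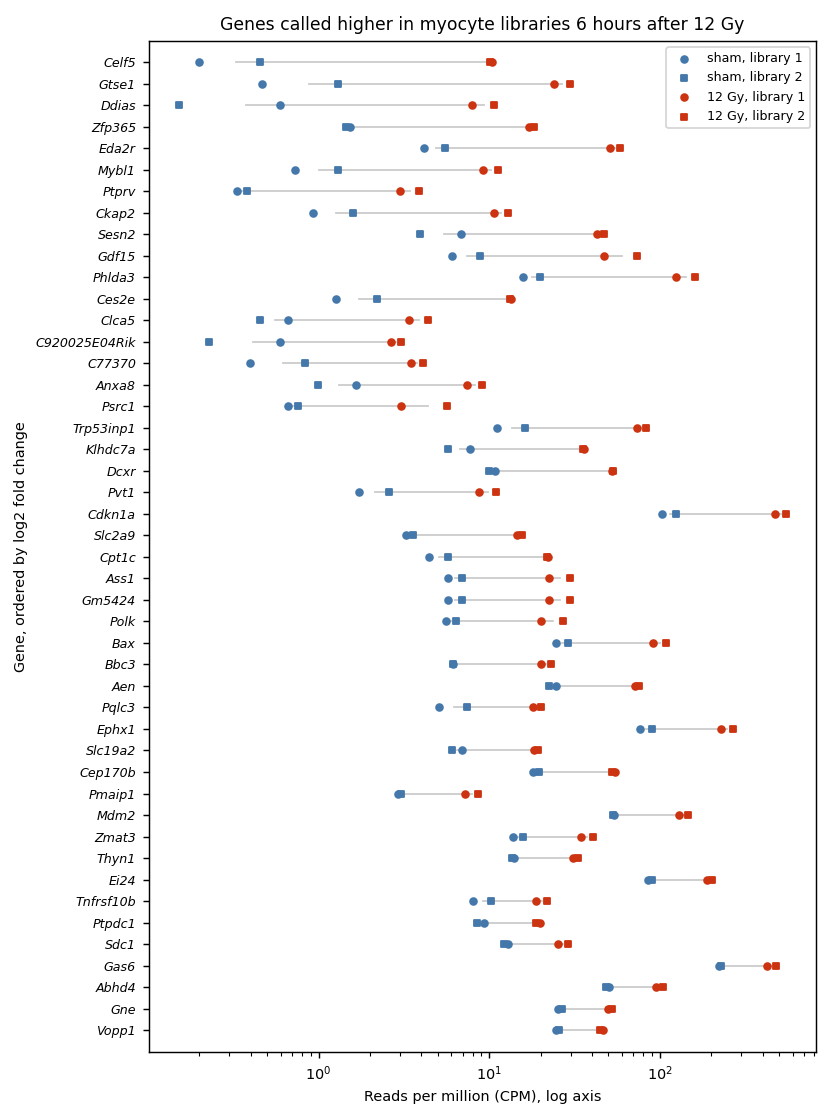
Level (CPM, log axis) of the 46 genes called higher in irradiated myocyte libraries, in the 2 sham (blue) and 2 irradiated (red) libraries, with a grey line between the group means and genes ordered by log2 fold change. The log2 fold changes run from 0.84 for Vopp1 at the bottom to 4.94 for Celf5 at the top, and no irradiated point overlaps a sham point of the same gene.

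Genes of the p53 response made up 21 of the 46. The lists were chosen with earlier results of these data known, so the counts of their members are a description and not a test. The 4 lists of p53 targets and regulators hold 46 genes, all tested; 21 were higher, 0 were lower, and the median log2 fold change was 1.22, against 0.326% of all genes called higher and a median of 0.00 over all genes. The number called was 12 and 8 with the first or second irradiated library left out, 7 and 8 with the first or second sham library left out, and 26 in the fit that left out the first irradiated library of 7 days. A fit with the endothelial markers as a covariate called 15, and fits with the fibroblast or the macrophage markers as a covariate called 16 each.

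Of the 7 feedback regulators, 3 were higher. Mdm2 (chromosome 10, 117688875 to 117710758), the ubiquitin ligase that marks p53 for degradation, stood at 53.6 and 53.3 CPM in the sham and at 129.9 and 145.9 CPM in the irradiated libraries. It rose 2.54-fold (log2 fold change 1.35 ± 0.17 (SE), adjusted p = 0.00437), and the sham libraries differed from each other by far less than the groups did. Trp53inp1, which codes for a p53-induced nuclear protein that promotes cell death and autophagy, rose from 11.1 and 16.3 CPM to 73.6 and 82.6 CPM, or 5.66-fold. Zmat3, an RNA-binding protein gene of the p53 pathway, rose 2.49-fold. These 3 rises did not pass without the second irradiated library, nor without either sham library, and those of Trp53inp1 and Zmat3 did not pass without the first irradiated library either. The message of p53 itself, Trp53, had 18.9 and 20.1 CPM in the sham and 18.02 and 21.3 CPM in the irradiated libraries, and the groups overlapped (log2 fold change -0.01 ± 0.19). The phosphatase gene Ppm1d, which switches the damage signal off, passed without the first irradiated library of 7 days (10.1 and 12.4 against 18.2 and 19.1 CPM) and not with it.

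Of the 11 arrest genes, 3 were higher. Cdkn1a (chromosome 17, 29090979 to 29100722), which codes for the cyclin-dependent kinase inhibitor p21, had 103.6 and 124.9 CPM in the sham and 476.2 and 549.5 CPM in the irradiated libraries. Its rise was 4.43-fold (log2 fold change 2.15 ± 0.17, adjusted p = 0.000432), and among the 46 genes it had the highest irradiated level in CPM. Per length it stood at 155.6 RPKM after irradiation against 34.5 RPKM in sham, above Gas6 (101.3 RPKM) and Ephx1 (86.5 RPKM). Gtse1, whose product holds p53 in check in G2 phase, rose from 0.463 and 1.29 CPM to 23.9 and 29.6 CPM (log2 fold change 4.93 ± 0.42, adjusted p = 0.000432). Psrc1, which codes for a spindle protein, rose 6.01-fold from under 1 CPM and lost its call without either sham library or the second irradiated library. Ccng1, the cyclin G1 gene and a p53 target in most tissues, stood at 870.1 and 873.7 CPM in the sham and at 1175 and 1213 CPM in the irradiated libraries (log2 fold change 0.43 ± 0.20, adjusted p = 1.00 by edgeR with all 12 libraries, 0.0807 without the first irradiated library of 7 days and 0.0219 with the 4 libraries of 6 hours alone). Btg2, Plk2, Plk3, Sfn and Gadd45a did not pass either, and Rprm, an arrest gene, stood at 0.223 ± 0.222 against 1.31 ± 0.0334 CPM (SD, n = 2) and passed in edgeR with the 4 libraries of 6 hours alone (adjusted p = 0.0216) and in limma (0.0302).

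Of the 12 cell death genes, 8 were higher, the largest share of the 4 lists. Eda2r (chromosome X, 97333837 to 97377234), a receptor of the tumour necrosis factor family, rose from 4.17 and 5.54 CPM to 50.8 and 58.8 CPM (log2 fold change 3.48 ± 0.38, adjusted p = 0.00203), and Phlda3 (chromosome 1, 135766085 to 135769134), which codes for a repressor of Akt survival signalling, from 15.7 and 19.97 CPM to 124.4 and 160.2 CPM (2.98 ± 0.27, adjusted p = 0.000529). Bax, the pore-forming effector of mitochondrial apoptosis, stood at 24.6 and 28.9 CPM in the sham and at 90.9 and 108.4 CPM in the irradiated libraries. Its rise of 3.68-fold came with those of both BH3-only genes of the list, Bbc3 (PUMA, 3.45-fold) and Pmaip1 (NOXA, 2.63-fold). Aen, a p53-induced nuclease, rose 3.07-fold, Ei24 2.19-fold, and Tnfrsf10b, the mouse receptor of the death ligand TRAIL, 2.19-fold. The apoptosome gene Apaf1 (11.5 and 14.1 against 30.9 and 35.2 CPM, adjusted p = 0.124) and Pidd1 passed without the first irradiated library of 7 days and not with it. The death receptor gene Fas and the desmosome gene Perp had log2 fold changes of 0.28 and 0.04. Of the 8, Phlda3 and Aen kept their call in every fit that left out 1 of the 4 libraries, and the list had 4 and 3 members called with the first or second irradiated library left out, and 2 and 3 with the first or second sham library left out.

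Of the 16 genes of metabolism, repair and secretion, 7 were higher. Gdf15 (chromosome 8, 70629393 to 70632470), which codes for a secreted stress hormone, rose from 6.09 and 8.81 CPM to 46.9 and 73.9 CPM (log2 fold change 3.003 ± 0.26, adjusted p = 0.000432). Sesn2, the sestrin that restrains the growth kinase mTORC1, rose from 6.88 and 3.95 CPM to 42.8 and 46.8 CPM, or 8.08-fold. Zfp365, whose product helps to keep replicating DNA stable, rose 11.7-fold from 1.52 and 1.44 CPM. Dcxr, a carbonyl and sugar reductase gene, rose 5.01-fold, Polk, the translesion DNA polymerase kappa gene, 3.90-fold, Ephx1, the microsomal epoxide hydrolase gene, 2.95-fold, and the lipid hydrolase gene Abhd4 1.99-fold. The repair nuclease gene Ercc5 and Ddit4l passed without the first irradiated library of 7 days and not with it. Sesn1, Xpc and Ddit4 had log2 fold changes of -0.07, -0.05 and -0.01. Outside these lists, the 19 tested genes of damage sensing and repair had 0 called and a median of -0.03.

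The upstream sequence of some of these genes carries the letters that p53 reads. Promoters from RefSeq (build GRCm38.p6, from 250 bases before to 50 bases after the start) were found for 38 of the 46 genes and 11053 of the genes tested. They were searched for the p53 consensus decamer, which reads the same on both strands. An exact decamer occurred in a promoter of 12 of the 38 genes (31.6%), against 8.47% of the genes tested. A pair of decamers, 0 to 13 bases apart and with at most 2 mismatches in all, occurred in 7 of the 38 (18.4%), against 4.66% of the genes tested. The called genes had 1.39 promoters each and the genes tested 1.27, and a gene counted once whichever promoter matched. The match is a description of the letters: no binding was measured in these libraries, and the decamer of a p53 gene often lies outside such a window. Upstream sequences of 250 bases are given for Cdkn1a, the called p53 gene with the highest irradiated level, for Bax and for Klhdc7a. Klhdc7a is the called gene with the smallest share carried by endothelial cells and fibroblasts in the values given further on. Only windows with a pair are printed, and the other Cdkn1a promoter (from chr17:29093519) had 0 exact decamers and 0 pairs. Matches are in capitals:
Cdkn1a, chr17:29090729-29090978, plus strand: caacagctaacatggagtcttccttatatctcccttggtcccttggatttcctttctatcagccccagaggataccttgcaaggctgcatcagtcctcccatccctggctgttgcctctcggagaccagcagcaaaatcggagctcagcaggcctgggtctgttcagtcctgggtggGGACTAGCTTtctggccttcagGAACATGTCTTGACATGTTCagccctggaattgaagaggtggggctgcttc
Bax, chr7:45466899-45467148, minus strand: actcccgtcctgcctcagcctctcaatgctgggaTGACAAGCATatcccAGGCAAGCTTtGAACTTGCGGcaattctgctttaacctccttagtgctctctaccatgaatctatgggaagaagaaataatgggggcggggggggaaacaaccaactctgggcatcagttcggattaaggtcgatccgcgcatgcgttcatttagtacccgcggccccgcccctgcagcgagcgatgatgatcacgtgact
Klhdc7a, chr4:139968027-139968276, minus strand: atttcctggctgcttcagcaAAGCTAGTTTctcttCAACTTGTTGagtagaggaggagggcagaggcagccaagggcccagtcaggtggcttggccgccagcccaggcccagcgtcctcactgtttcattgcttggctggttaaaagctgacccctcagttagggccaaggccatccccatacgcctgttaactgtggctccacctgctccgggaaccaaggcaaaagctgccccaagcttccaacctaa

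In the printed Cdkn1a window the exact decamers begin at positions -73 and -51 from the start, and the second of them is followed without a gap by a decamer with 1 mismatch. In Bax, 3 decamers lie in a row from position -216, of which the middle one is exact. In Klhdc7a an exact decamer is followed after 5 bases by one with 2 mismatches. Single exact decamers from other called genes show how the letters vary around the core:
Mdm2: GAACTTGCCT
Polk: GAACTAGCCT
Aen: GGGCTTGTCC
Ei24: GGGCATGCCC
Slc2a9: AGACAAGTTC

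The other 25 called genes are on none of the p53 lists. The largest rises were those of genes near the limit of detection in sham: Celf5, which codes for an RNA-binding protein, rose from 0.198 and 0.455 CPM to 10.4 and 10.2 CPM (log2 fold change 4.94 ± 0.46, adjusted p = 0.000552). Ddias, a DNA damage-induced suppressor of apoptosis, rose from 0.595 and 0.152 CPM to 7.90 and 10.7 CPM, and Mybl1, the gene of the transcription factor A-Myb, from 0.728 and 1.29 CPM to 9.23 and 11.3 CPM. Ckap2, a spindle gene, rose 9.26-fold and the phosphatase gene Ptprv 9.35-fold. Of the 46 genes, 17 had a sham mean under 5 CPM and 8 under 1 CPM.

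Among the other genes of the 25, Cpt1c, the brain-type relative of the mitochondrial carnitine acyltransferases, rose from 4.43 and 5.77 CPM to 21.97 and 21.8 CPM. Slc2a9, a urate transporter gene, rose 4.37-fold, and Slc19a2, a thiamine transporter gene, 2.84-fold. Ass1, which codes for argininosuccinate synthase, rose 4.07-fold, yet its counts differed by at most 4 reads in any library from those of its near-identical copy Gm5424, so the 2 cannot be told apart. Of the 46 genes, 12 overlap another annotated gene, among them Gas6, Ptprv, Anxa8, Thyn1 and Zmat3; whether the counting used strand is not given in the sources used here, so reads of such neighbours may be included. Gne, the key enzyme gene of sialic acid synthesis, rose 1.95-fold. Among secreted and surface proteins, Gas6, the ligand of the Axl and Mertk receptors, stood at 221.7 and 227.9 CPM in the sham and at 427.8 and 479.0 CPM in the irradiated libraries, and the syndecan gene Sdc1 rose 2.13-fold. The long noncoding RNA gene Pvt1, a neighbour of Myc, rose from 1.72 and 2.58 CPM to 8.73 and 11.02 CPM. Klhdc7a (chromosome 4, 139962173 to 139968026), a gene of the kelch domain family, stood at 7.67 and 5.77 CPM in the sham and at 36.04 and 35.5 CPM in the irradiated libraries, a rise of 5.23-fold (adjusted p = 0.000529).

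Since endothelial cells and fibroblasts were present in the myocyte libraries and respond to the same dose, each rise was set beside the amount that those cells would carry. The median over endothelial markers of the level in a myocyte library relative to the endothelial libraries of the same treatment was 12.8% and 15.6% in the sham and 12.5% and 12.96% in the irradiated libraries. The same value for fibroblast markers was 6.42% and 8.19% in the sham and 7.48% and 8.36% in the irradiated libraries. Multiplying each gene's level in endothelial and fibroblast libraries by these shares gave the carried difference between irradiated and sham. This assumes that admixed cells respond as the purified ones do and that myocytes have none of the markers. It also assumes that endothelial and fibroblast libraries hold only the named cells, which was not fully so. Mesothelial markers summed to 2198 to 2948 CPM in fibroblast and 206.5 to 319.5 CPM in endothelial libraries, against 16.7 to 21.9 CPM in myocyte libraries. The carried value of a gene from such cells may be too high. No macrophage library exists in the series, so a carried difference from macrophages was not tested.

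Over the 46 genes, the carried difference had a median of 61.4% of the measured one, with quartiles of 49.9% and 77.0%. It was under 50% for 12 genes, 50% to 100% for 27 and at least 100% for 7. For Cdkn1a the irradiated libraries held 398.6 CPM more than the sham libraries, of which 115.9 CPM was carried by endothelial cells and 83.5 CPM by fibroblasts, together 50.02%. For Mdm2 84.4 CPM was measured and 35.5 CPM carried (42.0%), and for Aen 49.9 CPM was measured and 20.9 CPM carried (41.9%). Bbc3 had 41.0% and Gdf15 45.7% of its rise carried, while Phlda3 had 57.9%, Bax 68.6% and Eda2r 75.1%. For these genes the measured rise was above the carried one.

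For 7 genes the carried difference alone was as large as the measured one or larger: Gas6 (228.6 CPM measured, 308.6 CPM carried), Ephx1 (165.4 and 176.3 CPM), Zfp365 (16.3 and 20.1 CPM), Sdc1, Pqlc3, Ces2e and Anxa8. The carried value of Anxa8 was 367.3% of the measured one and cannot be read as a share. Ephx1 stood at 531.3 CPM in sham endothelial libraries against 83.3 CPM in sham myocyte libraries. At the other end were Klhdc7a, with 29.1 CPM measured and 1.29 CPM carried (4.44%), and C920025E04Rik, a clone-named transcript with 2.44 CPM measured and 0.249 CPM carried (10.2%). Klhdc7a had a mean of 0.102 CPM in sham endothelial and 1.48 CPM in sham fibroblast libraries, under its 6.72 CPM in sham myocyte libraries. Ptprv (26.1%) and Pvt1 (26.4%) followed.

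**Figure D3:**
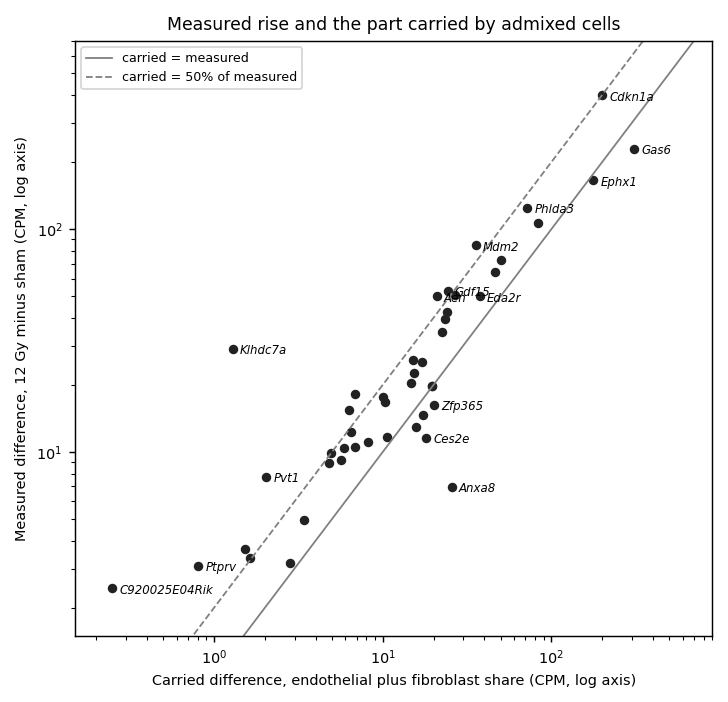
Measured difference between irradiated and sham myocyte libraries (CPM, log axis) against the difference carried by the endothelial and fibroblast shares (CPM, log axis), 1 point for each of the 46 genes, with lines where carried equals measured and 50% of measured. Klhdc7a lies far above both lines (29.1 against 1.29 CPM) and Cdkn1a on the 50% line, while Gas6, Ces2e and Anxa8 lie below the line of equality.

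Most of the 46 genes were called higher in the libraries of all 3 cell types. Endothelial and fibroblast RNA formed part of the myocyte libraries, so how far myocytes themselves share in this overlap was not tested. In a fit of all 36 libraries, 619 of 16234 genes were higher in endothelial (3.81%) and 850 in fibroblast libraries (5.24%) at 6 hours. Of the 46 genes, 45 were higher in endothelial, 44 in fibroblast and 43 in both. Those 43 were 93.5% of the genes called in myocyte libraries. Of all 14115 genes tested here, 292 were called higher in both other cell types, and the 43 were 14.7% of these. The 46 calls came from the fit of the myocyte libraries alone, and those of the other cell types from the fit of all 36. In that fit of all 36 libraries, 128 genes were higher and 43 lower in myocyte libraries. How many of the 292 were among the 128 was not tested, so both percentages compare calls of unlike fits. The 292 had a median log2 fold change of 0.53 in myocyte, 1.19 in endothelial and 1.17 in fibroblast libraries. They were chosen by their calls in endothelial and fibroblast libraries, which raises the medians there, so these values are a description. The p53 lists had 32 of 46 members higher in endothelial and 32 in fibroblast libraries, with medians of 1.66 and 1.55. In the same fit of all 36 libraries, 26 members were higher in myocyte libraries.

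**Figure D4:**
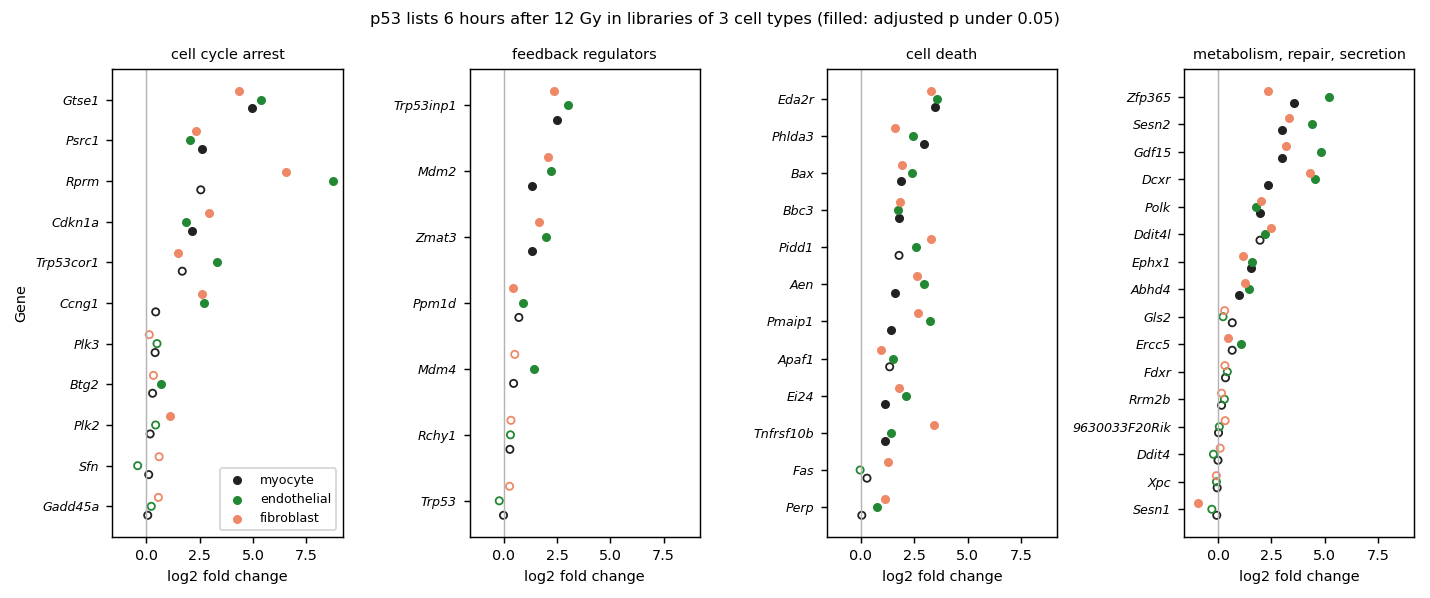
Log2 fold change of irradiated over sham at 6 hours for the members of the 4 p53 lists in myocyte (black), endothelial (green) and fibroblast libraries (orange), filled where adjusted p was under 0.05. The medians over the 46 genes are 1.22 in myocyte, 1.66 in endothelial and 1.55 in fibroblast libraries, and Ccng1 lies at 0.43 in myocyte against 2.71 and 2.61 in the other libraries.

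The size of the change differed between myocyte and endothelial libraries for 62 of 16234 genes (0.382%), 56 smaller and 6 larger in myocyte libraries, by the edgeR test of the difference itself. This count was 194 when the first irradiated library of 7 days was left out. The p53 target Ccng1 (chromosome 11, 40748552 to 40755309) was among the 6 genes with the smallest p: its log2 fold change was smaller by 2.28 ± 0.20 in myocyte than in endothelial libraries (difference -2.28, adjusted p = 7.31e-08). Sham myocyte libraries held a mean of 871.9 CPM and sham endothelial libraries 71.4 CPM, and the rise in endothelial libraries was 6.55-fold. Aldh4a1 (chromosome 4, 139622871 to 139649691), a proline catabolism enzyme gene, had the same form, with 167.2 and 163.4 CPM in sham and 211.2 and 196.7 CPM in irradiated myocyte libraries, and a rise of 4.59-fold in endothelial libraries from 25.4 CPM (difference -1.92 ± 0.14). So did 9030617O03Rik, with 71.4 and 65.9 CPM in sham and 104.5 and 95.4 CPM in irradiated myocyte libraries against 8.11-fold in endothelial libraries from 11.2 CPM (difference -2.50 ± 0.17). Wfikkn2, a gene of secreted protease and growth factor inhibitors, and Wdr35, a cilium gene, had differences of -3.04 ± 0.25 and -2.50 ± 0.23 and small values in myocyte libraries (0.34 ± 0.21 and 0.03 ± 0.21).

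Part of the p53 response was itself smaller in myocyte than in endothelial libraries. Aen (difference -1.36 ± 0.14), Gdf15 (-1.84 ± 0.31), Sesn2 (-1.39 ± 0.25), Dcxr (-2.24 ± 0.38), Pmaip1 (-1.84 ± 0.32), Ei24 (-0.97 ± 0.13), Mdm2 (-0.90 ± 0.18) and Zfp365 (-1.63 ± 0.32) rose less, and with Ccng1 these are the 9 members of the p53 lists among the 62. For Cdkn1a no difference was detected (0.30 ± 0.21, adjusted p = 0.777), nor for Bax (-0.52 ± 0.30), Bbc3 (0.03 ± 0.24), Eda2r (-0.11 ± 0.37) or Phlda3 (0.52 ± 0.24). Since endothelial and fibroblast RNA formed part of the myocyte libraries, these differences are between libraries; how far pure myocytes differ was not tested.

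Between myocyte and fibroblast libraries, 191 of 16234 genes differed (1.18%), 170 with a lower and 21 with a higher value in myocyte libraries. The count was 92 when the first irradiated myocyte library was left out, 106 for the second sham one, 383 when the first irradiated library of 7 days was left out, and 105 without the second irradiated fibroblast library, in which Cdh5 stood at 46.2 CPM against at most 7.41 CPM in the other fibroblast libraries. Ccng1 (-2.18 ± 0.20), Aldh4a1 (-1.63 ± 0.14) and 9030617O03Rik (-1.99 ± 0.18) were again among the 6 genes with the smallest p. The other 3 were Rnd1 (-4.79 ± 0.39), the CTP synthase gene Ctps (-1.73 ± 0.15) and the guanylate-binding protein gene Gbp5 (-3.61 ± 0.33), which changed in fibroblast libraries: Rnd1 rose 38.7-fold there. Of the p53 lists, 11 genes were among the 191. Phlda3 rose more in myocyte than in fibroblast libraries (1.36 ± 0.24, adjusted p = 0.0021), as did Zfp365 (1.20 ± 0.28), whereas Tnfrsf10b rose less (-2.31 ± 0.25). The interferon-stimulated gene Isg15 stood at 10.3 and 9.72 CPM in sham and at 5.12 and 6.54 CPM in irradiated myocyte libraries, against a rise of 2.14-fold in fibroblast libraries (difference -1.90 ± 0.39, adjusted p = 0.00961). The connexin 43 gene Gja1 had 402.7 and 371.7 CPM in sham and 436.4 and 407.3 CPM in irradiated myocyte libraries and rose 1.91-fold in fibroblast libraries (difference -0.84 ± 0.17).

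**Figure D5:**
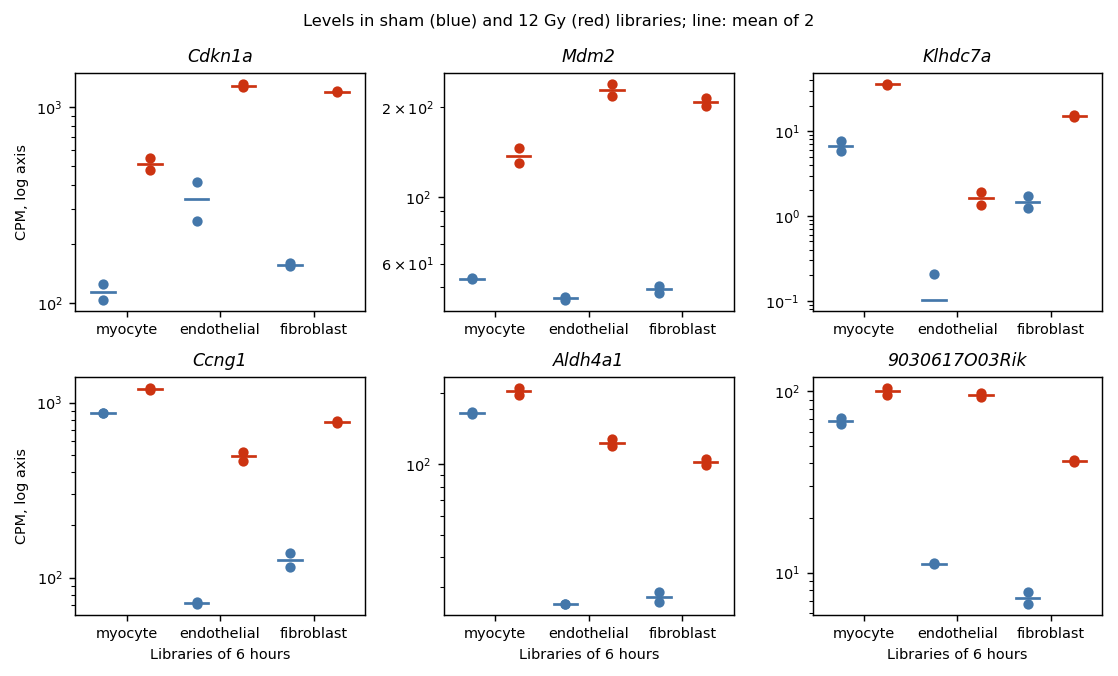
CPM (log axis) of 6 genes in the sham (blue) and irradiated (red) libraries of 6 hours of each cell type, 2 points a group with the mean as a line. Ccng1, Aldh4a1 and 9030617O03Rik lie higher in sham myocyte libraries (871.9, 165.3 and 68.7 CPM) than in the other sham libraries, and Klhdc7a has its highest level in irradiated myocyte libraries (35.8 CPM); 1 sham endothelial library with no Klhdc7a read is not drawn.

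No gene was called lower in irradiated myocyte libraries by edgeR with all 12 libraries, and 31 were (0.215%) without the first irradiated library of 7 days. All 31 were also called lower with the 4 libraries of 6 hours alone, and their adjusted p in the fit of all 12 libraries ran from 0.0886 to 1.00. The genes named from them were chosen after their values were seen. The proliferation marker Mki67 had 5.49 and 9.49 CPM in sham and 2.56 and 2.88 CPM in irradiated libraries. The clock genes Per2 (35.1 and 39.3 against 16.4 and 20.5 CPM) and Hlf (44.8 and 50.03 against 26.6 and 28.8 CPM) were also among the 31; the labels give no hour of day. Cyr61, the matrix-associated growth factor gene now known as Ccn1, had 635.5 and 689.4 CPM in sham and 393.9 and 431.5 CPM in irradiated libraries. Genes of the myocyte itself were Cox6a2, the heart form of a cytochrome oxidase subunit (1717 and 1623 against 1179 and 972.2 CPM), and Cacnb2, a subunit of the cardiac calcium channel (50.7 and 46.5 against 36.2 and 32.1 CPM).

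The endothelial and fibroblast shares carried a median of 34.6% of the measured difference over these 31 genes, and under 25% for 13 of them. For Cox6a2 the measured difference was -594.3 CPM and the carried one -0.0464 CPM, and for Cacnb2 -14.5 and 0.179 CPM. For Cyr61 the carried difference had the other sign (26.4 CPM against -249.8 CPM measured), and its change differed from that in endothelial libraries (-1.32 ± 0.20, adjusted p = 0.00071), where it rose 1.53-fold. For the endothelial marker Cdh5, 98.0% of the difference (-104.7 CPM) was carried. Cdh5 is among the markers that set the endothelial share, so its high value follows from that choice and is no check of the shares.

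Of the genes that passed without that library of 7 days and not with it, 3 with small carried differences are given here. The linker histone gene Hist1h1c had 81.1 and 67.0 CPM in sham and 123.4 and 124.9 CPM in irradiated libraries, with 0.478% of the difference carried, and differed from fibroblast libraries (0.81 ± 0.19, adjusted p = 0.0314) but not detectably from endothelial ones (0.59 ± 0.19, adjusted p = 0.309). Glipr1 had 5.09 and 5.01 against 11.96 and 13.03 CPM, with 1.27% carried, and differed from endothelial libraries (1.31 ± 0.26, adjusted p = 0.0145). Plau, the urokinase gene, had 7.21 and 11.6 against 18.6 and 19.9 CPM, with 14.6% carried. These 3 were chosen after their values were seen, and no macrophage value could be subtracted for them.

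Of 24 sarcomere and Z-disc genes, 16 calcium handling genes, 18 potassium channel and connexin genes, 29 oxidative phosphorylation genes and 25 fatty acid oxidation genes, 0 were called by edgeR in either direction, and the median log2 fold changes were 0.02, -0.02, -0.05, 0.07 and -0.01. Without the first irradiated library of 7 days Cox6a2 and Cacnb2 were called lower, as given above. With the 4 libraries of 6 hours alone, 2 potassium channel and connexin genes, 2 fatty acid oxidation genes, 1 calcium handling gene and 1 oxidative phosphorylation gene were lower and 0 sarcomere genes were. The ryanodine receptor gene Ryr2, the calcium release channel of the sarcoplasmic reticulum, had 1896 and 2004 CPM in sham and 1821 and 1684 CPM in irradiated libraries. The natriuretic peptide genes, read out as markers of cardiac stress, had 1242 and 1519 against 995.3 and 1553 CPM for Nppa and 113.8 and 101.0 against 65.3 and 71.6 CPM for Nppb. Nppa overlapped between the groups, and Nppb did not (log2 fold change -0.67 ± 0.41, adjusted p = 1.00 by edgeR with all 12 libraries and 0.00016 with the 4 libraries of 6 hours alone). Nppb was not called in the fit without the first irradiated library of 7 days.

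Lists of inflammation and proliferation had 0 members called as well. Of 30 interferon-stimulated genes, 27 had a negative log2 fold change (median -0.29), against a median of 0.52 and 8 genes higher in fibroblast libraries, where 5.24% of all genes were higher. Of 22 genes for cytokines, chemokines and adhesion, the median was -0.10, and the monocyte chemokine gene Ccl2 had 5.23 and 7.14 CPM in sham and 7.34 and 9.37 CPM in irradiated libraries. Of 40 cell cycle genes, 35 had a negative log2 fold change (median -0.51), with 21 of 40 lower in endothelial libraries (3.2% of all genes). The medians of the Notch, clock, chaperone and extracellular matrix lists were -0.26, -0.22, -0.23 and -0.17, and those of the immediate-early, antioxidant and glucocorticoid lists were -0.19, 0.05 and -0.18. The 14 natriuretic peptide and stress genes had a median of -0.02 over 13 tested. With the 4 libraries of 6 hours alone, in which 2.35% of all genes were lower and 1.6% higher, 6 cell cycle, 5 clock, 4 interferon-stimulated, 4 glucocorticoid-responsive, 3 Notch, 3 natriuretic and stress, 2 chaperone, 2 extracellular matrix and 1 immediate-early gene were lower. In that fit 3 genes for cytokines, chemokines and adhesion, 1 clock, 1 glucocorticoid-responsive and 1 extracellular matrix gene were higher.

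The 46 genes were chosen at 6 hours, so their values at later times are given as a description. Their median log2 fold change of 2.11 at 6 hours compared with 1.15 for 7 days and 0.77 for 28 days, and 45 of 46 were positive at each later time; 9 were called at 7 days, when 0.085% of all genes were higher or lower, and 3 at 28 days (0.0354%). No gene had a called difference between 6 hours and 7 days or 28 days (edgeR, 525 and 417 genes at an unadjusted p under 0.05), and without the first irradiated library of 7 days 2 and 24 genes had one. Klhdc7a had the smallest p between 6 hours and 7 days among genes of at least 5 CPM, with log2 fold changes of 2.39 ± 0.22 and 0.41 ± 0.24 (adjusted p of the difference 0.825). Cdkn1a had log2 fold changes of 2.15 ± 0.17, 2.27 ± 0.17 and 0.82 ± 0.16 in the order of time (adjusted p of the difference between 6 hours and 28 days 0.305). Gdf15 was called at all 3 times, with 3.003 ± 0.26, 2.95 ± 0.27 and 2.64 ± 0.26, and Mdm2 had 1.35 ± 0.17, 0.38 ± 0.17 and 0.34 ± 0.17.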

How the data were processed

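RNA of myocytes, endothelial cells and fibroblasts was extracted with RNeasy and amplified with SMARTer chemistry, per the labels' protocols. The authors deposited a table per library with read counts and RPKM for 33068 RefSeq transcripts. Per the file headers another column holds TPM, yet its values equal RPKM worked out from the counts, transcript lengths and library totals (largest difference 1.8e-12). The test planned on TPM was therefore run on log2(RPKM + 1). The build is GRCm38 (mm10), per the submitters' processing notes; which aligner and counter were used is not given in the sources used here. Read columns that name other libraries, 30 in all, were left out.

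The tables hold 24061 gene names, 4914 with more than 1 transcript, and the transcript with most reads over the 36 libraries was kept for each. Counts were fitted with edgeR 4.0.16 in R 4.3.3 (quasi-likelihood, TMM, filterByExpr with a minimum count of 10 and a minimum total of 15, Benjamini-Hochberg threshold 0.05). The 12 myocyte libraries entered the main comparison and the differences between times. All 36 entered the differences between cell types and the fold changes of endothelial and fibroblast libraries. DESeq2 1.42.0 and limma 3.58.1 (pseudocount 1) were alternatives, beside other normalization, filters, covariates, transcript sums, replicate blocks and libraries left out. The fits were tested on simulated data. Tables were made with Python 3.11.15.

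The 4 libraries of 6 hours held 13.17 M to 19.42 M reads on the chosen transcripts; this number limits the precision of low genes. Of the gene names, 23884 matched the RefSeq GRCm38.p6 table, from which coordinates and promoters were taken. The text draws its names from the 15 largest and 15 smallest log2 fold changes among called genes of at least 5 CPM with no overlap of the groups and no clone name, from up to 4 called members per list by p, from a fixed set, and from the 6 genes of at least 5 CPM with the smallest p per difference. Further genes, such as Gas6, Ptprv, Sdc1, Slc19a2, C920025E04Rik and Anxa8, were chosen after their values were seen. The 32 lists comprise 21 of programs and 11 of cell markers. The members and lists were chosen with earlier results of these data known.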

Additional observations from a re-analysis of the deposited data

Results flagged for a closer look

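The effect of radiation at 6 hours differed between myocyte and endothelial libraries for 62 genes and between myocyte and fibroblast libraries for 191 genes, by edgeR's test of the difference with Benjamini-Hochberg adjustment in the fit of 36 libraries. Values are the log2 fold change in myocyte libraries minus that in the other cell type.

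Against endothelial libraries, the p53 targets and regulators differed by -2.28 for Ccng1, -2.24 for Dcxr, -1.84 for Gdf15 and Pmaip1, -1.63 for Zfp365, -1.39 for Sesn2, -1.36 for Aen, -0.97 for Ei24 and -0.90 for Mdm2. Other named genes with a smaller value in myocyte libraries were Wfikkn2 (-3.04), 9030617O03Rik (-2.50), Wdr35 (-2.50), Aldh4a1 (-1.92), Slc19a2 (-1.43), Cyr61 (-1.32), Ptpdc1 (-0.87) and Ctps (-0.71). Glipr1 had a larger value in myocyte libraries (1.31).

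Against fibroblast libraries, Phlda3 (1.36), Plau (1.22), Zfp365 (1.20), Sesn1 (0.89) and Hist1h1c (0.81) had larger values in myocyte libraries. Smaller values were found for the p53 genes Ccng1 (-2.18), Tnfrsf10b (-2.31), Dcxr (-1.97), Pmaip1 (-1.29), Perp (-1.10), Aen (-1.03), Mdm2 (-0.74) and Ei24 (-0.66). They were also found for Rnd1 (-4.79), Gbp5 (-3.61), 9030617O03Rik (-1.99), Isg15 (-1.90), Ctps (-1.73), Sbk2 (-1.66), Aldh4a1 (-1.63), Cacnb2 (-0.84) and Gja1 (-0.84). Zfp365 had opposite signs against the 2 other cell types.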

How the results depend on the processing

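The count of 46 genes became 80 with DESeq2, 171 with all 36 libraries in 1 fit, 111 with no filter beyond 1 read, 148 without the first irradiated library of 7 days and 552 with the 4 libraries of 6 hours alone. It became 30 with a filter at a mean of 5 CPM, 28 with endothelial markers as a covariate, and 11 to 21 when 1 of the 4 libraries was left out. With no filter, 173 genes differed from endothelial libraries, 446 from fibroblast libraries, 37 between 6 hours and 7 days and 57 between 6 hours and 28 days. Without that library of 7 days these counts were 194, 383, 2 and 24. Leaving out 1 myocyte library gave 42 to 45 genes against endothelial and 92 to 150 against fibroblast libraries; leaving out the second irradiated fibroblast library, an alternative chosen after seeing the data, gave 105. Fewer libraries lower the residual degrees of freedom, and the cause of the other shifts was not tested. Of the log2 fold changes of single named genes under these alternatives, 1136 kept their direction and side of the threshold, 119 no longer passed and 65 newly passed; the 102 values for differences of single genes kept theirs. Of the counts of p53 list members, 72 stayed within 1.5 times the count given and 23 did not. None of these values reversed.

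No label says that the replicate numbers pair the libraries. Same-numbered sham and irradiated libraries deviated from their group means with correlations of 0.096, -0.018 and -0.043 for 6 hours, 7 days and 28 days. Such a value cannot decide whether they share a preparation or batch. With the replicate block the counts were 35, 60, 187, 0 and 0 for the main comparison and the 4 differences, and a block within each time gave 21 for the main comparison.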
